A study of Canis lupus familiaris with 6 samples.

Results

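The Iroquois genes IRX3, IRX4 and IRX5 and 7 other transcription factor genes of the heart, TBX5, TBX20, GATA4, GATA6, HAND2, NKX2-5 and MEF2C, were followed in the left ventricle of dogs. They were followed by every probe set whose annotation gave 1 gene symbol equal to one of these 10 names, with no filter, which gave 18 of 42924 probe sets and 10 of 15115 named genes. A probe set is a group of short probes that together measure a transcript. Of the 10 genes, 5 had 1 probe set and 5 had several. The genes were chosen by their values in the contrast of affected and control arrays, above all the low IRX3 values of the affected dogs, as part of one network of factors. The differences between the groups are therefore given for the members as descriptions, with no test.

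The study hybridised left ventricular RNA to Affymetrix canine arrays, with 1 array for each of 6 dogs. Control 1 was a Labrador retriever (male, 12 years), control 2 a St. Bernard (female, 10 years) and control 3 a Greater Swiss Mountain dog (male, 4 years). All affected dogs had cardiomyopathy and were Great Danes, namely affected 1 (female, 9 years), affected 2 (male, 7 years) and affected 3 (male, 7 years). Breed and disease cannot be told apart in this design, since every affected dog was a Great Dane and no control was. The arrays are labelled as biological replicates, and n was 3 dogs in each group unless an array is said to be left out or used alone. RNA came from tissue and not from sorted cells, where fewer cells of a type and less RNA per cell cannot be told apart.

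Iroquois proteins are homeodomain transcription factors whose genes lie in clusters. In the heart IRX4 marks the ventricles, IRX5 takes part in setting the gradient of repolarisation across the ventricular wall, and IRX3 acts in the fast conduction network of the ventricle. The T-box proteins TBX5 and TBX20, the zinc finger proteins GATA4 and GATA6, the basic helix-loop-helix protein HAND2, the homeodomain protein NKX2-5 and the MADS-box protein MEF2C form the core network that builds the heart, and several of them bind the same regulatory DNA in heart muscle cells. No sequences of the probes or of these genes were used here.

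The deposited values are log2 values from which the 6-array median of the probe set has been taken away, so that 1 unit is a 2-fold difference and no value holds an expression level. Strong and weak expression could not be told apart, genes could not be ranked by level, and the tissue could not be checked against its markers by level. With 6 arrays the middle pair of values lies at equal distances above and below 0. Where the groups do not overlap, the control and the affected value on either side of the gap therefore mirror each other. Standard errors (SE) are from limma, a linear model with a moderated variance, fitted to all 42924 probe sets for the members and, for neighbours, lists and markers, to the means of the probe sets of all 15115 genes. In the fit of probe sets 1 probe set, or 0.00233%, had an adjusted p under 0.05, and it was no member. At an unadjusted p under 0.05 there were 6.32% lower and 4.53% higher.

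Several facts of the whole series bear on the members. The array carries 17 tag control probe sets, which are designed against sequences outside the dog genome. Their mean was 0.06, 0.01 and 0.13 on the controls and -0.03, -0.03 and -0.01 on the affected arrays, so that all affected arrays lay below all controls. Over the 6 arrays 41.8% of all probe sets followed that mean with a correlation over 0.9, and 1 of the 18 member probe sets did. Among probe sets with a range of at least 1 over the arrays, as 11 of the members have, 5.76% did. Just below 0.9 were the IRX5 probe set without the suffix _s_at (0.89), both of GATA6 (0.89 each) and TBX5 (0.86). Affected 3 and affected 1 had the highest signals of the spiked poly-A control transcripts (means of 2.52 and 0.55, against -0.26 to -0.004 on the other arrays). For beta-actin the control probe sets at the 3' end minus those at the 5' end, a difference that is higher where RNA is more degraded, gave 0.84 on affected 3 and 0.25 on affected 1 and -0.23 to 0.16 elsewhere, while GAPDH gave -0.06 and -0.01 on these arrays and -0.19 to 0.30 elsewhere. Values below -1 were most frequent on control 3, with 1683 probe sets, where every other array had 161 to 510.

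IRX3 and IRX5 were lower in every affected heart than in any control heart. IRX3 was 5.98-fold lower and IRX5 was 4.54-fold or 2.31-fold lower by its separate probe sets, as differences of group means. IRX4, the ventricular member of the family, showed no such separation. These 3 probe sets of IRX3 and IRX5 were the only ones of the 18 that were at least 2-fold lower, and none was at least 2-fold higher. Over all probe sets 0.764% were at least 2-fold lower and 2.53% at least 2-fold higher, and 0.471% were at least 2-fold lower without overlap of the groups.

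The single IRX3 probe set had values of 1.31, 0.07 and 1.19 on control 1, control 2 and control 3, and of -0.07, -1.21 and -3.89 on affected 1, affected 2 and affected 3. The affected hearts spread widely (SD 1.96, against 0.69 in controls), and affected 3 was by far the lowest. Affected 1 and control 2, the 2 females, lay only 0.14 apart, so that the groups were barely separated at this point. The group means were -1.72 and 0.86, a difference of -2.58 (SE 1.06). Without affected 3 the difference was -1.50. For affected 2 alone against the controls it was -2.07. An absolute difference at least as large was found in 0.219% of all probe sets.

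IRX5 was measured by a pair of probe sets whose names share a stem, so that they are not independent measurements. The one with the suffix _s_at, used by the manufacturer for probes that match more than one transcript, had values of 0.78, 1.11 and 0.84 on the controls and -0.78, -1.09 and -1.95 on affected 1, affected 2 and affected 3. Here the groups were clearly apart, with a gap of 1.56 between the lowest control and the highest affected value, the widest gap of any member. The difference was -2.18 (SE 0.32), and it was -1.84 without affected 3 and -2.00 for affected 2 alone. The other IRX5 probe set had values of 0.44, 0.06 and 1.39 on the controls and -0.67, -0.06 and -1.02 on the affected arrays. Its groups did not overlap either, but control 2 and affected 2 lay only 0.12 apart. The difference was -1.21 (SE 0.43), with -0.83 without control 3 and -0.69 for affected 2 alone.

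IRX4, with 1 probe set, had values of -0.08, 0.04 and 0.07 on the controls and -0.04, 0.08 and -0.54 on the affected arrays. Apart from affected 3, the array farthest from the median was at 0.08. The difference was -0.18 (SE 0.18), and it turned to 0.01 without affected 3.

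**Figure D1:**
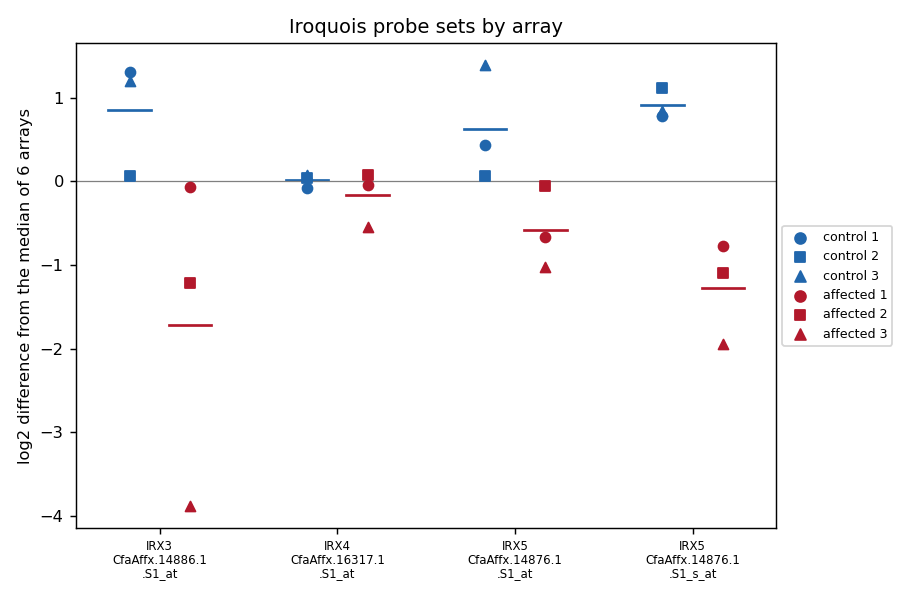
Values of the 4 Iroquois probe sets on each array (vertical axis, log2 difference from the median of the 6 arrays), with controls in blue, affected dogs in red, 1 marker shape per replicate number and short lines at the group means (n = 3 each). IRX3 falls to -3.89 on affected 3, the IRX5 _s_at probe set leaves a gap of 1.56 between the groups, and IRX4 stays close to 0 except on affected 3.

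The order of the affected hearts was alike in part. Affected 3 had the lowest value in all 4 Iroquois probe sets, and affected 2 lay below affected 1 in IRX3 and the _s_at probe set of IRX5 but above it in the other IRX5 probe set. As a description over the 6 arrays, IRX3 and the IRX5 _s_at probe set had a Pearson correlation of 0.87 and a Spearman correlation of 0.77, and IRX3 and the other IRX5 probe set 0.78 and 0.89. These points share the separation of the groups and the arrays, which raises such values.

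IRX3 and IRX5 are neighbours in the genome. In the RefSeq annotation of the dog assembly UU_Cfam_GSD_1.0 the protein-coding genes around them run MMP2, IRX6, IRX5, an uncharacterised gene, IRX3, FTO, RPGRIP1L, AKTIP and RBL2. No build is given for the array in the sources used here, so only this order is used. The measured neighbours lay between -0.15 and 0.50. FTO, the neighbour of IRX3, encodes an RNA demethylase and holds in its introns enhancers that act on IRX3 in other tissues, and it differed by 0.11 (SE 0.11). It was at -0.05, -0.23 and 0.13 on the controls and 0.14, 0.08 and -0.05 on the affected arrays. IRX6, the third gene of the cluster, differed by -0.09 (SE 0.05) and followed the tag probe sets with a correlation of 0.99. RPGRIP1L, a gene of the primary cilium, differed by -0.15 (SE 0.06) and followed them with a correlation of 0.97. AKTIP differed by 0.14 (SE 0.09), RBL2, a relative of the retinoblastoma protein, by 0.06 (SE 0.09), and the matrix protease MMP2 by 0.50 (SE 0.37) with overlapping groups.

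The second Iroquois cluster holds IRX4, IRX2 and IRX1. IRX2 had values of 0.24, 1.24 and 0.04 on the controls and -0.07, -0.07 and -0.04 on the affected arrays, a difference of -0.56 (SE 0.33, limma adjusted p = 0.322 over all genes), and its height came from control 2. Next to IRX4, the complex I subunit NDUFS6 differed by -0.13 (SE 0.12) and the mitochondrial ribosomal protein MRPL36 by -0.11 (SE 0.29), and no value of IRX1 is given here. Over the fixed list of 14 measured genes around both clusters, which leaves out the members, 9 were below 0 and 5 above, with a median of -0.09, where 65% of all 15115 genes were below 0 and their median was -0.07. After a filter on range the list's median was 0.05. None passed the adjusted threshold of 0.05 in limma, and 0 had an unadjusted p under 0.05. The smallest p were those of CHD9, RPGRIP1L, CAPNS2 and SLC6A2. CHD9 differed by -0.24 (SE 0.10) with overlapping groups, over 7 probe sets whose differences ran from -0.66 to 0.18. CAPNS2 differed by -0.10 (SE 0.05) and SLC6A2 by -0.09 (SE 0.05). Each of the genes named here followed the tag probe sets with a correlation over 0.9. Of these 14 genes 6 followed the tag probe sets, or 42.9%, against 37.8% of all genes.

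**Figure D2:**
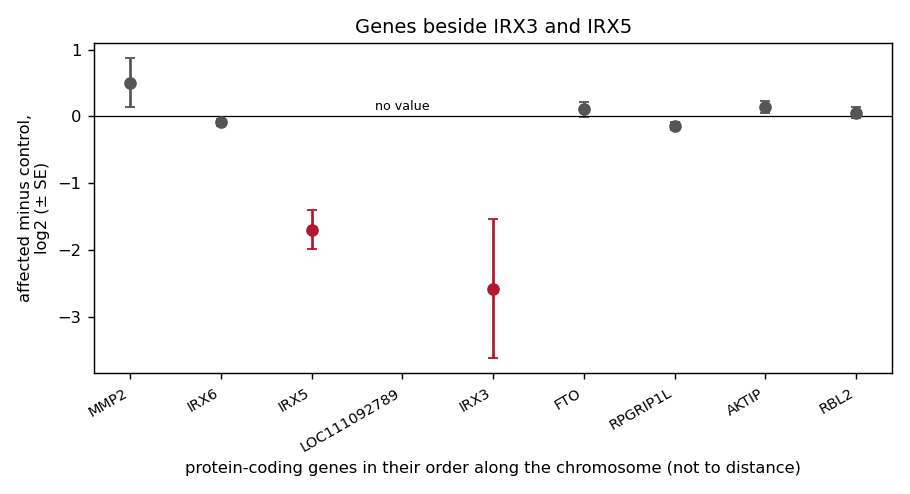
Difference between affected and control hearts (vertical axis, log2, bars are SE, n = 3 against 3) for the protein-coding genes beside IRX3 and IRX5, placed in gene order and not by distance. IRX3 at -2.58 and IRX5 at -1.70, the mean of its probe sets, stand below their neighbours, which lie between -0.15 and 0.50.

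Across the 18 member probe sets 7 had all affected values below all controls, 1 had them above, and 10 overlapped. Among all probe sets 46.9% were lower without overlap and 5.37% higher, so that a lack of overlap alone was common on these arrays. After each array's median was subtracted these shares were 18.1% and 12.9%, and the members counted 6 lower and 2 higher. The 7 lower ones were the 3 of IRX3 and IRX5, the single TBX5 probe set, both of GATA6 and 1 of 5 for MEF2C. The difference was below 0 in 11 of the 18 and in 67% of all probe sets, with medians of -0.26 and -0.08.

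**Figure D3:**
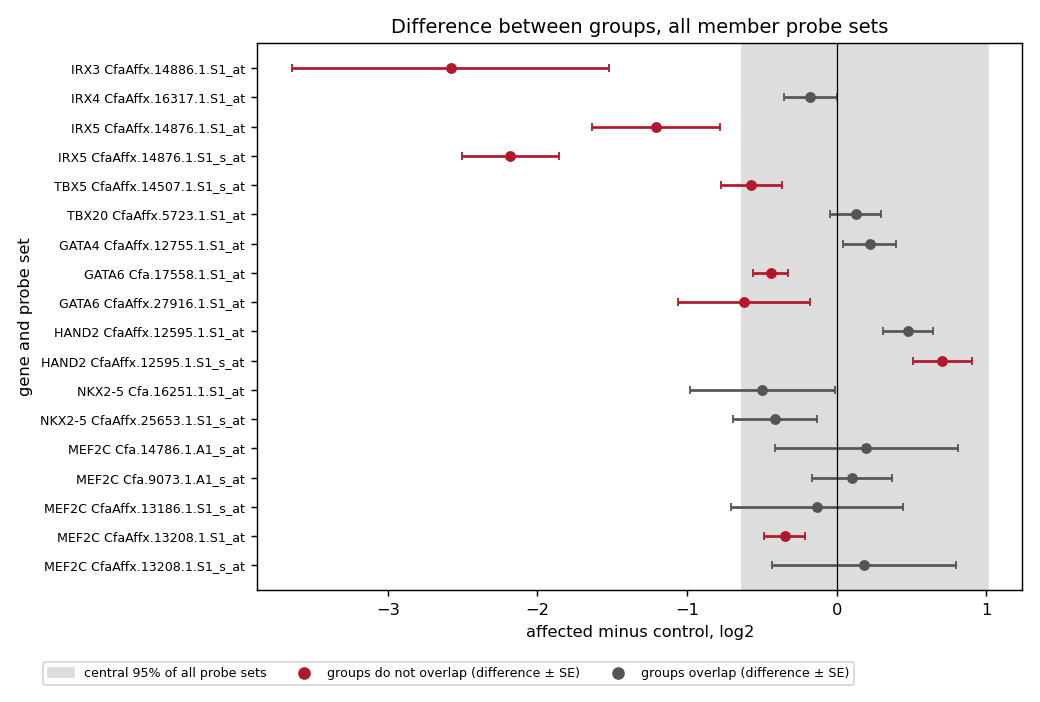
Affected minus control difference with its SE (horizontal axis, log2) for each of the 18 member probe sets, in red where the groups do not overlap and in grey where they do, with the range that holds all but the lowest and highest 2.5% of all probe sets shaded (-0.63 to 1.01). Only the IRX3 and IRX5 probe sets lie below the shaded range by their means.

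TBX5, the T-box factor needed for septation and the conduction system, was slightly lower in affected hearts. Its probe set had values of 0.56, 0.02 and 0.63 on the controls and -0.06, -0.02 and -0.40 on the affected arrays. Control 2 and affected 2 lay 0.05 apart, so that the lack of overlap rested on a small step. The difference was -0.57 (SE 0.20), between -0.76 and -0.43 in all alternatives run. TBX5 had the same order of all 6 arrays as the IRX5 probe set without the suffix _s_at (Pearson 0.92, Spearman 1, n = 6). This was not particular to TBX5, since 1 GATA6 probe set was as close to that IRX5 probe set (Pearson 0.94, Spearman 0.94). These probe sets of TBX5, IRX5 and GATA6 share the separation of the groups. They also ran with the tag mean at correlations of 0.86, 0.89 and 0.89. TBX20, a T-box factor that keeps the adult heart muscle programme, differed by 0.13 (SE 0.17). Its values were 0.02, -0.02 and 0.06 on the controls and -0.04, 0.52 and -0.04 on the affected arrays, so that affected 2 alone stood out.

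Of the GATA factors only GATA6 had probe sets without overlap. GATA6 was lower in affected hearts in both probe sets without overlap, with values of 0.19, 0.06 and 0.37 against -0.38, -0.06 and -0.25 in the first, a difference of -0.44 (SE 0.12). In the second the values were 0.03, 0.01 and 1.48 against -0.30, -0.02 and -0.01, a difference of -0.62 (SE 0.44). That one rested on control 3 and was -0.13 without it, and its groups overlapped after each array's median was subtracted and after quantile normalization. GATA4, in 1 probe set, had values of -0.17, 0.12 and -0.08 on the controls and -0.01, 0.54 and 0.01 on the affected arrays. Its difference was 0.22 (SE 0.18), and 0.04 without affected 2.

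HAND2, which drives growth of the right ventricle in the embryo, was the one member gene that was higher in affected hearts with no overlap in a probe set. The _s_at probe set had values of -0.81, -0.09 and -0.61 on the controls and 0.30, 0.22 and 0.09 on the affected arrays, a difference of 0.71 (SE 0.20). The other HAND2 probe set had values of -0.51, 0.004 and -0.46 on the controls and 0.19, 0.28 and -0.004 on the affected arrays, a difference of 0.48 (SE 0.17). There control 2 and affected 3 overlapped by under 0.01, and after each array's median was subtracted they did not. The names of these probe sets share a stem too. In both, control 2 was the control nearest to the affected dogs, and without it the differences were 0.91 and 0.64. The 2 probe sets ran opposite to the tag mean (correlations of -0.87 and -0.90).

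NKX2-5, the homeodomain factor that acts with GATA4 and TBX5, was low on affected 3 alone. In the first probe set the values were 0.02, 0.45 and -0.02 on the controls and -0.03, 0.36 and -1.37 on the affected arrays, a difference of -0.50 (SE 0.48). Without affected 3 it was 0.02. The second had 0.03, 0.66 and -0.03 on the controls and -0.03, 0.08 and -0.63 on the affected arrays, a difference of -0.41 (SE 0.28). In both, control 2 and affected 2 were the highest arrays and affected 3 the lowest.

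MEF2C, the MADS-box factor of muscle, had 5 probe sets that did not run alike. The differences were 0.20 (SE 0.61), 0.10 (SE 0.27), -0.13 (SE 0.57), -0.35 (SE 0.14) and 0.18 (SE 0.62). In the first of these control 3 was at -1.42 and affected 1 at -0.97, with the other arrays between -0.21 and 0.52. In the last one these arrays were at -1.67 and -1.03, with the others between -0.07 and 0.18. So the low arrays were 1 control and 1 affected dog, and the group means were close. The second had -0.11, 0.51 and -0.34 on the controls and 0.11, 0.40 and -0.16 on the affected arrays, and the third 0.16, 0.87 and -0.32 against -0.68, 1.17 and -0.16. In these, control 2 and affected 2 were the highest. The only MEF2C probe set without overlap, the one at -0.35, was the member that followed the tag mean, with a correlation of 0.995. Its values were 0.27, 0.04 and 0.54 on the controls and -0.05, -0.12 and -0.04 on the affected arrays. Of the other 4 probe sets, all changed the sign of their difference in at least 1 alternative.

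**Figure D4:**
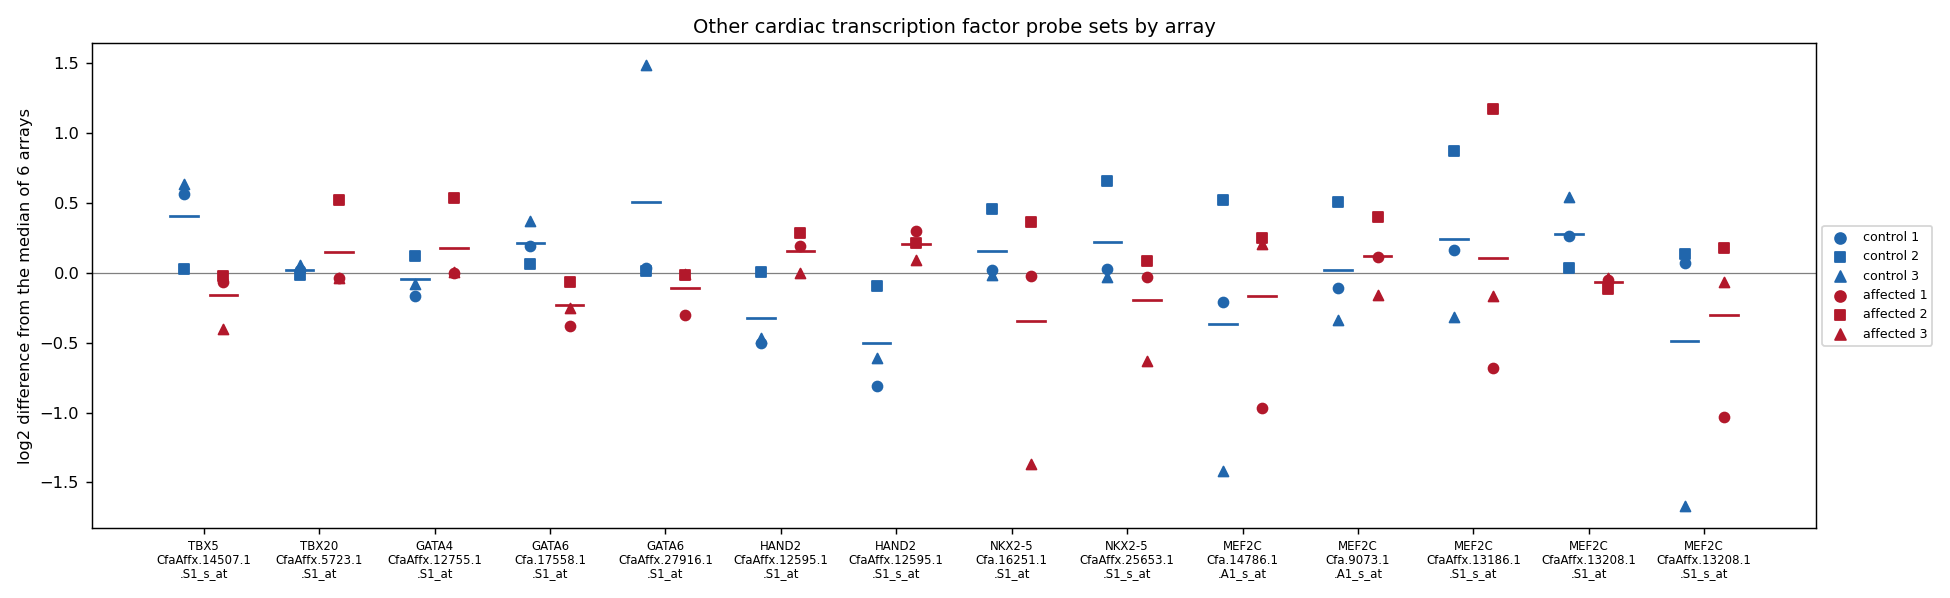
Values of the 14 probe sets of the 7 other cardiac transcription factors on each array (vertical axis, log2 difference from the median of the 6 arrays), with controls in blue, affected dogs in red, 1 marker shape per replicate number and short lines at the group means (n = 3 each). HAND2 lies higher in affected dogs, affected 3 is lowest in NKX2-5, and control 3 and affected 1 are lowest in several MEF2C probe sets.

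Affected 3 was the lowest array in 8 of the 18 member probe sets and the highest in 0. These 8 were all 4 Iroquois probe sets, TBX5, TBX20 and both of NKX2-5, with a margin under 0.01 for TBX20. Among all probe sets affected 3 was the lowest in 9.35% and the highest in 10.9%. Of the 11 members with a range of at least 1 over the arrays, it was the lowest in 6 and the highest in 0. Over all 10128 such probe sets it was the lowest in 10.2% and the highest in 21.1%. These 6 were the probe sets of IRX3, IRX5, TBX5 and NKX2-5, and probe sets of 1 gene are not independent. The members were chosen from this contrast, above all by IRX3, which was itself lowest on affected 3. Their shares are therefore a description and no test. Affected 3 also had the highest poly-A spike signal and the highest 3' minus 5' difference of beta-actin given above, and their part in the low values was not tested. On affected 2 the same 8 probe sets were at -1.21 for IRX3, 0.08 for IRX4, -1.09 and -0.06 for IRX5, -0.02 for TBX5, 0.52 for TBX20, and 0.36 and 0.08 for NKX2-5, so that 2 of them were clearly low there.

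**Figure D5:**
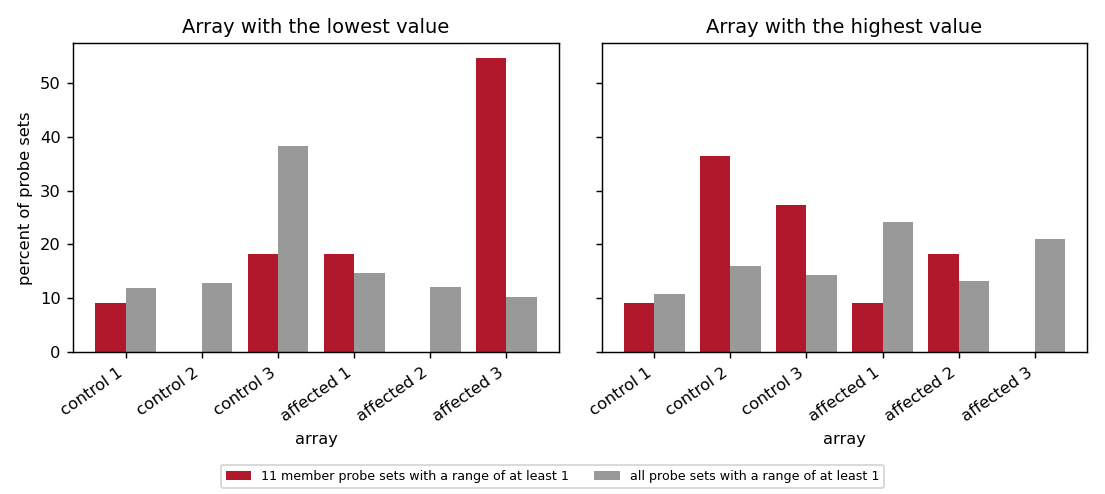
Share of probe sets (vertical axis, percent) in which each array had the lowest (left) or the highest value (right), for the 11 member probe sets with a range of at least 1 in red and for all 10128 such probe sets in grey. Affected 3 was lowest in 6 of the 11 members and in 10.2% of all, and highest in 0 of the members and in 21.1% of all. The members were chosen from the contrast of these arrays, so their shares are a description.

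The probe sets most like IRX3 in their values over the 6 arrays, by root mean square difference, were those of SHISAL2A (0.83), C3H15orf40 (0.89), the purine receptor gene P2RY1 (0.90), the valine-breakdown enzyme gene ALDH6A1 (0.94) and the calgranulin gene S100A8 (0.99). The IRX5 _s_at probe set was at 0.98 by the same measure and the other one at 1.34. SHISAL2A had values of 0.70, 0.92 and 1.03 on the controls and -0.70, -0.94 and -2.30 on the affected arrays, so that it too was lowest on affected 3. The other probe sets of P2RY1 and ALDH6A1 were at 1.56 and 1.36, and those of C3H15orf40 at 1.28 and 1.73. Likeness here is to the pattern of 6 arrays that chose IRX3.

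Other transcription factors and cofactors of the heart were taken from a fixed list without the members, of which 44 of 52 genes were measured. None passed the adjusted threshold in limma over all genes, where 0 of 15115 genes passed, and 1 was lower and 1 higher at an unadjusted p under 0.05. Over all genes these shares were 5.64% and 4.88%. In the list 34 genes were below 0 and 10 above, with a median of -0.09, against -0.07 over all genes. Without overlap 22 were lower and 1 higher, where 41.7% of all genes were lower and 5.8% higher. The tag probe sets were followed by 20 of the 44, or 45.5%, among them TBX1, TBX2, TBX3, TBX18 and GATA5. MEF2A, a relative of MEF2C, differed by -0.61 (SE 0.22, limma adjusted p = 0.322) over 6 probe sets whose differences ran from -1.41 to -0.07. MYOCD, the coactivator myocardin, differed by -1.06 (SE 0.45, limma adjusted p = 0.322) with overlapping groups. MRTFB, a relative of myocardin, differed by -0.12 (SE 0.05). The orphan receptor gene NR2F1 differed by 0.59 (SE 0.22, limma adjusted p = 0.322), with 1.22 and -0.04 in its separate probe sets.

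Targets and partners of Iroquois factors were measured in 19 of 21 genes. None passed the adjusted threshold in limma, and 0 were lower and 2 higher at an unadjusted p under 0.05. Among all genes 5.64% were lower and 4.88% higher by that rule. In the list 12 genes were below 0 and 7 above, where 65% of all genes were below 0. Without overlap 6 were lower and 2 higher, against 41.7% and 5.8% of all genes. The list's median was -0.05, against -0.07 over all genes. It was 0.01 after quantile normalization, 0.02 after subtraction of array medians and 0.19 after a filter on range. KCND2, the potassium channel gene that IRX5 represses in the mouse ventricle, differed by -0.12 (SE 0.06) and followed the tag probe sets with a correlation of 0.99. Its relative KCND3 differed by -0.23 (SE 0.10, limma adjusted p = 0.322). KCNIP2, the channel's accessory subunit, had values of -2.02, 0.06 and 0.05 on the controls and 0.66, 2.40 and -1.25 on the affected arrays, so that both groups spread widely around a difference of 1.24 (SE 1.10). The gap junction genes GJA1 and GJA5, on which IRX3 acts in opposite directions in the mouse, differed by 0.73 (SE 0.62) and -0.10 (SE 0.37). The height of GJA1 came from affected 2, at 1.99, where the other affected arrays were at -0.08 and 0.07. The higher pair were the chemokine gene CXCL12 at 1.30 (SE 0.30) and the atrial light chain MYL7 at 1.41 (SE 0.40, limma adjusted p = 0.322 for both). The potassium channel gene KCNH2 differed by 0.51 (SE 0.23), with 1.06 and -0.04 in its separate probe sets.

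Targets of GATA4, NKX2-5, TBX5, HAND2 and MEF2C in heart muscle were measured in 32 of 35 genes, with 21 above 0, 11 below and a median of 0.13. Over all genes 65% were below 0, with a median of -0.07. None of the 32 passed the adjusted threshold in limma, and 0 were lower and 5 higher at an unadjusted p under 0.05. Among all genes 5.64% were lower and 4.88% higher by that rule. Without overlap 2 of the 32 were lower and 5 higher, against 41.7% and 5.8% of all genes. The stretch-responsive ANKRD1 differed by 0.61 (SE 0.11), the Z-disc protein gene TCAP by 0.41 (SE 0.09) and the cardiac actin gene ACTC1 by 0.25 (SE 0.09, limma adjusted p = 0.322 for all 3), each without overlap.

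Markers of other cells moved with the groups in part. Of the fibroblast markers 7 of 9 were above 0 without overlap, where 5.8% of all genes were higher without overlap. The median difference of the 9 was 1.49. Their median value was -0.31, -0.12 and -1.51 on the controls and 1.09, 0.09 and 0.73 on the affected arrays. POSTN differed by 2.93 (SE 0.92) and COL1A1 by 1.75 (SE 0.55, limma adjusted p = 0.322 for both). The fibroblast markers below 0 were PDGFRA at -0.69 (SE 0.60) and TCF21 at -0.18 (SE 0.70), with overlapping groups. The part of the fibroblast markers in the member values was not tested. Cardiomyocyte markers had a median difference of 0.13 over 10 genes, with array medians from -0.20 to 0.02 in controls and from -0.03 to 0.10 in affected dogs. All of these genes were also in the list of targets of GATA4, NKX2-5, TBX5, HAND2 and MEF2C, so that the medians of these lists are not independent. Markers of Purkinje and conduction cells, where IRX3 is known to be active, were below 0 in 5 of 5 measured genes with a median of -0.10, and 4 of them without overlap, against 65%, -0.07 and 41.7% over all genes, and 2 of these followed the tag probe sets. Among them ETV1, a factor of the fast conduction network, differed by -0.37 (SE 0.06, limma adjusted p = 0.322). Its separate probe sets differed by -0.58 and -0.15. As their mean ETV1 was at 0.23, 0.28 and 0.13 on the controls and -0.08, -0.22 and -0.15 on the affected arrays. The other conduction markers differed by -0.19 to -0.06. The median differences were -0.01 for endothelial, 0.12 for smooth muscle and pericyte, 0.74 for macrophage, 0.27 for adipocyte, -0.11 for atrial cardiomyocyte and -0.10 for T cell markers. In these 6 lists 0 genes passed the adjusted threshold in limma, while PECAM1 was lower (-0.82) and VWF and MYL7 higher (0.89 and 1.41) at an unadjusted p under 0.05. MYL7 was in both lists of targets too. The macrophage median was 0.87, -0.42 and -0.61 on the controls and 1.98, -0.16 and 0.09 on the affected arrays. The adipocyte median was 0.05, -0.32 and 0.13 against 1.28, -0.16 and -0.10. Affected 1 was thus the highest array in both, and 0 genes of either list were without overlap.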

How the data were processed

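Left ventricular RNA of 3 control and 3 affected dogs was measured on 1 array each, and groups were taken from the sample titles. The deposited values were used as log2 values. MAS5 and GCRMA stand in the submitters' processing notes without a role or version. That the scale is log2 was read from GCRMA's usual output and the range of the values. The deposited table was centred per probe set (largest absolute median 5e-07), and which step did so is not given in the sources used here. After 111 array control probe sets were left out, 42924 remained, of which 29254 had 1 gene symbol, 439 several and 13231 none listed. A gene's value was the mean of its probe sets, with symbols updated through the Entrez gene ID.

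The groups were compared by lmFit and eBayes of limma (version 3.58.1, run in R 4.3.3), two-sided, with no filter and no variance trend, with Benjamini-Hochberg adjustment over all probe sets or all genes. The step was tested on simulated arrays in which each probe set varied independently of the others. The movement that many probe sets share with the tag probe sets was therefore not covered by that test. No filter on range was used, since a filter on variability can distort moderated p-values. 1 probe set passed the adjusted threshold of 0.05. The members and the gene lists were chosen with earlier results of these data known. Named from each list were up to 4 genes with the smallest p, and as like IRX3 the 5 closest genes. Other genes of these lists (IRX2, KCND2, KCNIP2, GJA1, GJA5, neighbours of IRX3 and IRX4) were named for their known relation to the members. Alternatives were a filter on range, quantile normalization, array medians, sex, age, the replicate number as a block, 1 probe set per gene and leaving out each array. Affected 2 alone against the 3 controls was added after seeing the data. The number of arrays limits the precision.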

Additional observations from a re-analysis of the deposited data

How the results depend on the processing

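IRX3 kept its direction in all 13 alternatives, from -3.59 after quantile normalization to -1.50 without affected 3, and both IRX5 probe sets, TBX5, both GATA6 and both HAND2 probe sets kept theirs. IRX4 and the first NKX2-5 probe set changed sign without affected 3 and TBX20 without affected 2. Members without overlap numbered 8, between 8 and 11 with 1 array left out, and 14 for affected 2 alone against the controls, where a lone array overlaps less by construction. Beside the 8, 46.9% of all probe sets were lower and 5.37% higher without overlap. Without affected 2, where the members numbered 11 of 18, these shares were 52.1% and 11.4%. For affected 2 alone against the controls, where the members numbered 14 of 18, the shares were 56.8% and 15.2%. Of these 14 members 7 were lower. The replicate numbers were not taken as pairs. Same-numbered arrays deviated together at correlations of 0.27, 0.15 and 0.02, and differently numbered ones at -0.23 to 0.04. Control 1 and control 2 correlated best with the affected array of the same number, while control 3 correlated best with affected 2. These values do not decide whether the numbers mark pairs. With the replicate block IRX3 was at -2.58, and 0 probe sets passed the adjusted threshold, with 2260 lower and 2193 higher at an unadjusted p under 0.05.

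Over all probe sets 1 passed the adjusted threshold, against 6 after a filter that left out 40% of them for a small range, 0 after quantile normalization, 0 with age as a covariate and 0 to 5 with 1 array left out. At an unadjusted p under 0.05 there were 2713 lower and 1945 higher probe sets, a share of 41.8% higher. There were 771 lower after that filter on range (69.5% higher), 1097 lower after subtraction of array medians (68.5% higher), and 9745 lower and 2919 higher with age. With 1 array left out there were 655 lower without affected 1 and up to 12212 without control 2, and 1097 higher without control 3 and up to 3100 without control 2. The cause was not tested. No gene of the 4 lists passed the adjusted threshold in the alternatives run on them. The comparison of affected 2 alone with the controls was not run on the lists. A variance trend was not run, since the values hold no level.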
